A study of Mus musculus with 10 samples.

Results

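Transcripts of 10 genes of the anterior pituitary were followed in RNA of the ventral hippocampus (vHpc): the hormone genes Prl, Gh, Pomc, Cga, Lhb, Fshb and Tshb, the lineage transcription factor genes Pou1f1 and Pitx1, and the receptor gene Ghrhr. The 10 were picked by symbol out of the 24421 genes of the table. They were chosen by their CPM levels in these same 10 libraries, so that their levels and differences are given as a description, without tests. All mice were female C57BL/6 mice from which the ovaries had been removed (OVX), and all had 2 weeks of recovery before treatment. WT mice carried the wild-type gene for brain-derived neurotrophic factor, and Het-Met mice carried 1 copy of its Met variant (genotype label BDNF Met/+). For 6 weeks they drank water with 300 nM 17β-estradiol (E2, about 0.7 µg per day) in 0.1% ethanol, or 0.1% ethanol alone (vehicle). The 10 libraries were 2 of vehicle-treated WT (replicates 1 and 3), 2 of E2-treated WT (replicates 1 and 2), and of Het-Met mice 3 under vehicle and 3 under E2. The RNA of 2 animals was pooled for a library, so the level in a single animal was not measured.

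The anterior pituitary is a gland below the brain whose cell types each make a hormone: lactotrophs make prolactin, somatotrophs growth hormone, corticotrophs the ACTH precursor pro-opiomelanocortin, and gonadotrophs and thyrotrophs the glycoprotein hormones, which share the α subunit encoded by Cga and differ in their β subunit. Pou1f1 is needed for the lactotroph, somatotroph and thyrotroph lineages, and Pitx1 acts in most pituitary lineages. Estrogen is a classical stimulus of Prl transcription in lactotrophs. Pomc is also made by neurons of the hypothalamus, and low expression of Gh and Prl in brain tissue has been described.

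The 250 bases before the gene start, from RefSeq on GRCm38.p6 (also called mm10), were at hand for 7 of the 10 genes. They are shown for Prl, Pomc and Cga, 3 hormone genes of different lineages whose levels are compared below, 5′ to 3′ on the strand of the gene, with matches to the POU1F1-type motif ATGNATA on either strand in capitals. The windows are chr13:27057320-27057569 for Prl, chr12:3954695-3954944 for Pomc and chr4:34893529-34893778 for Cga, all on the plus strand.
Prl: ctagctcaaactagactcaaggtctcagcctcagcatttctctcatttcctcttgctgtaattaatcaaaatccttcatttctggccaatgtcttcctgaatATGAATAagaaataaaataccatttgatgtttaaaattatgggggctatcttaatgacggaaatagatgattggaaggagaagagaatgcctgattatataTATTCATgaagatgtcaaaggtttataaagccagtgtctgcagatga
Pomc: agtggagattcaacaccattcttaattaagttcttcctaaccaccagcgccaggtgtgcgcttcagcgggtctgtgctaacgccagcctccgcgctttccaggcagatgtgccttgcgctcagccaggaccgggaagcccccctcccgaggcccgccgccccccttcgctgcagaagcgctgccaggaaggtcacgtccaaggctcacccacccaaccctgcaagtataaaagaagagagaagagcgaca
Cga: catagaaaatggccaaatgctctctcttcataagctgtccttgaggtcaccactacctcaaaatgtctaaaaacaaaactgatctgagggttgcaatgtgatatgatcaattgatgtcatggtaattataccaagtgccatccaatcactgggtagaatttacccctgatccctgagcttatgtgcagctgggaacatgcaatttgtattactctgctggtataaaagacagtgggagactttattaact
The Prl window held 2 matches to ATGNATA, starting 148 bases before the gene start on the plus strand and 47 bases before it on the minus strand. Among the 7 genes a match was also found for Pou1f1, and 7.92% of 32851 windows of the same length held at least 1. The letters TATAAA were found for all 7 genes and in 12.4% of all windows, and 2 of the motifs can overlap, as in Pou1f1. A further Pou1f1 window, chr16:65523059-65523308, held 0 matches to TATAAA and to ATGNATA. The palindromic estrogen response element (GGTCA, any 3 bases, then TGACC) was found for 0 of the 7 genes and in 0.0639% of all windows. At so low a share, 0 of 7 says little about estrogen control of these genes. Imperfect elements and bases farther from the gene start were not searched, and Gh was not among the 7 genes.

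In each library between 19820184 and 23267410 reads were counted on genes, and 1 read was worth 0.0430 to 0.0505 CPM (reads per 1000000 reads counted). A gene with 0 reads is limited to 3 reads by counting error alone, which is 0.129 to 0.151 CPM. Replicates differed by more than the sampling noise (a chi-square of 3.29 to 13.5 per degree of freedom). The tissue label was met by hippocampal markers, which summed to between 757 and 921 CPM over 8 genes, led by Neurod6 and Fibcd1, and all 8 were detected. The 6 hypothalamic region markers, led by Tbx3 and Nhlh2, summed to 5.20 to 7.49 CPM, and Sim1, Otp and Nr5a1 reached at most 5 reads in a library. The 7 meningeal markers, led by Igf2 and Dcn, summed to 285 to 424 CPM. Of the 4 blood markers Hba-a1 and Hbb-bs, both for globins, stood at 0 throughout, and Alas2 and Hemgn made up the sum of 2.09 to 3.89 CPM. Alas2 had reads in all 10 libraries, so the 0 of the globin genes does not show that blood was absent. The 10 choroid plexus markers, led by Ttr and Kl, differed most between libraries, from 148 to 3257 CPM.

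Prl, the prolactin gene (chromosome 13, 27057570 to 27065205 of mm10), was the most abundant of the 10 genes per length, with a mean of 26.1 CPM per kb of exon. Its level was 0.648 and 39.5 CPM in the vehicle-treated WT libraries (replicates 1 and 3) and 96.0 and 19.8 CPM in the E2-treated WT libraries (replicates 1 and 2). It was 6.97, 5.20 and 1.44 CPM in the vehicle-treated Het-Met libraries and 36.6, 159.9 and 0.854 CPM in the E2-treated Het-Met libraries. The highest level was 247 times the lowest, and within vehicle-treated WT and within E2-treated Het-Met mice 1 library stood near the bottom of this range. E2 and vehicle libraries therefore overlapped in both genotypes.

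Gh, the growth hormone gene (chromosome 11, 106300271 to 106301865), had a mean of 14.8 CPM per kb. It stood at 0.463 and 41.4 CPM in vehicle-treated WT and at 19.9 and 5.85 CPM in E2-treated WT libraries. In vehicle-treated Het-Met libraries it was 3.80, 5.75 and 1.90 CPM, and in E2-treated Het-Met libraries 8.76, 40.0 and 0.0948 CPM. The lowest of these values was 2 reads. The 4 libraries that were highest for Prl were also the 4 highest for Gh, but in another order, with a vehicle library first for Gh and an E2 library first for Prl.

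Pomc (chromosome 12, 3954951 to 3960642) had a mean of 2.63 CPM per kb. Its level was 1.62 and 11.3 CPM in vehicle-treated WT and 1.84 and 3.27 CPM in E2-treated WT libraries. It was 1.38, 1.11 and 1.16 CPM in vehicle-treated Het-Met and 2.89, 9.22 and 0.854 CPM in E2-treated Het-Met libraries. The highest level was 13.3 times the lowest, a narrower range than that of Prl, and the same pair of libraries, vehicle-treated WT replicate 3 and E2-treated Het-Met replicate 2, held the top for Pomc and for Gh.

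Cga, the gene for the shared α subunit (chromosome 4, 34893779 to 34907370), had a mean of 0.657 CPM per kb. It had 1 and 69 reads in vehicle-treated WT (0.0463 and 3.42 CPM) and 31 and 3 reads in E2-treated WT libraries (1.39 and 0.129 CPM). In vehicle-treated Het-Met libraries it had 4, 5 and 3 reads, and in E2-treated Het-Met libraries 5, 10 and 0 reads. Most of its 131 reads thus came from 2 WT libraries, 1 of each treatment.

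**Figure D1:**
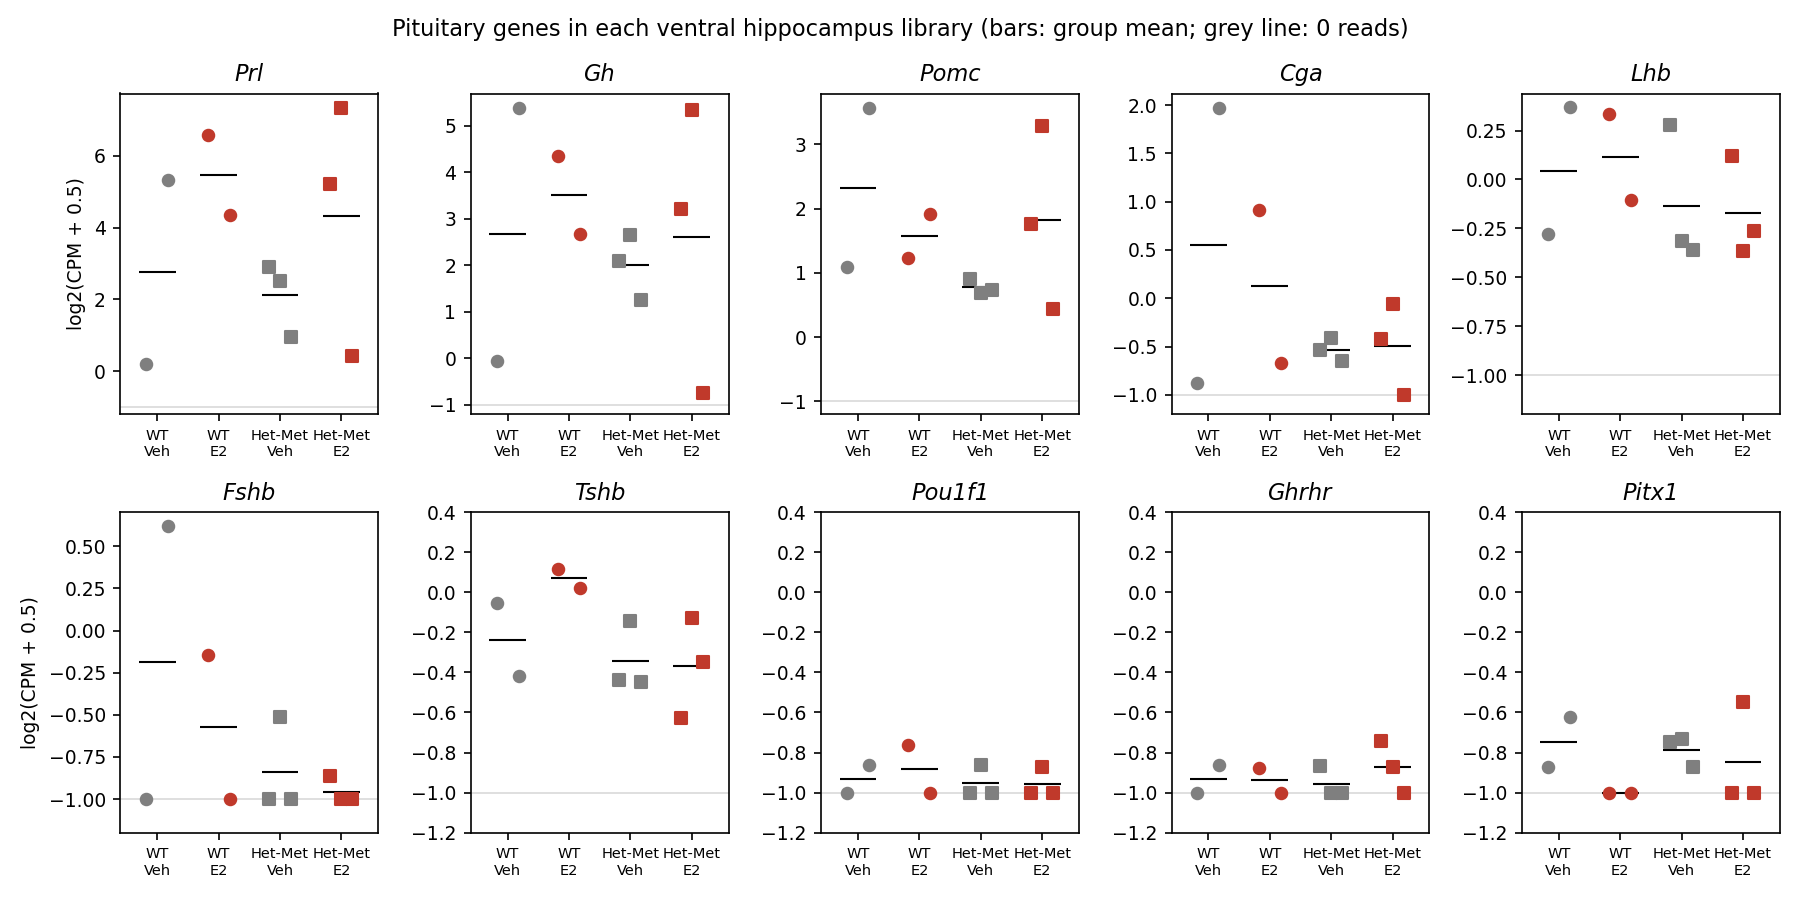
Levels of the 10 pituitary genes in each library, as log2(CPM + 0.5) on scales that differ between panels (gray, vehicle; red, E2; circles, WT; squares, Het-Met; bars, group means; gray line, the position of 0 reads). For Prl, Gh and Pomc the libraries within vehicle-treated WT and within E2-treated Het-Met mice lie far apart, and for Cga those within each WT group. All E2 and all vehicle libraries are separated for 0 of the 10 genes, and for 0.270% of the 24421 genes of the table.

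The β subunit genes Fshb, Lhb and Tshb had 35, 102 and 76 reads over the 10 libraries, beside 131 for Cga. Per kb of exon Lhb, with a mean of 0.708 CPM, was not below Cga (0.657 CPM). Fshb, which encodes the β subunit of follicle-stimulating hormone (chromosome 2, 107056140 to 107059656), had 0 and 21 reads in vehicle-treated WT, 9 and 0 in E2-treated WT, 0, 4 and 0 in vehicle-treated Het-Met and 1, 0 and 0 in E2-treated Het-Met libraries. The same 2 WT libraries that were highest for Cga were highest for Fshb, and 6 of the 10 libraries held no Fshb read. Lhb, for luteinizing hormone (chromosome 7, 45420820 to 45421897), had between 6 and 17 reads in every library, 0.277 to 0.793 CPM. Lhb was highest in the same 2 WT libraries as well, at 16 and 17 reads, beside 15 reads in vehicle-treated Het-Met replicate 1. Its exons share 138 bases with Ruvbl2 on the other strand, and a strand setting of the counting is not given in the sources used here, so that its reads cannot be told apart from those of Ruvbl2. Tshb, for thyroid-stimulating hormone (chromosome 3, 102775465 to 102782718), had between 3 and 13 reads in every library, 0.147 to 0.583 CPM. Tshb reads were thus present in all 10 libraries, also where Prl and Gh were lowest.

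The lineage genes were close to the detection limit also where Prl was high. Pou1f1 (chromosome 16, 65520511 to 65535005) had at most 2 reads in a library and none in 6 libraries. Ghrhr, the receptor for the hypothalamic releasing hormone of growth hormone (chromosome 6, 55376295 to 55388530), also had at most 2 reads and none in 5. Pitx1 (chromosome 13, 55825051 to 55836192) had at most 4 reads and none in 4. In E2-treated Het-Met replicate 2, which held 3468 Prl and 867 Gh reads, Pou1f1 and Ghrhr had 1 read each and Pitx1 had 4. Reads this few do not show whether the lineage genes follow Prl and Gh over the libraries.

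Prl, Gh, Pomc and Cga varied between libraries more than nearly all other genes. Among the 15081 genes whose mean reached 0.5 CPM, which included Prl, Gh, Pomc and Cga and left out the other 6, Prl had the largest standard deviation of log2(CPM + 0.5) over the 10 libraries (2.56) and Gh the second largest (2.08). Pomc (1.09) stood at place 15 and Cga (0.92) at place 19, whereas the median gene had 0.13 and the 99th percentile was 0.46. Cga, with a mean of 0.627 and a median of 0.217 CPM, passed the filter only through vehicle-treated WT replicate 3 (3.42 CPM). That library also adds to the spread of Cga. The places of Prl, Gh, Pomc and Cga describe genes that were chosen with their levels known. In bulk RNA fewer cells of a type and less RNA per cell cannot be told apart.

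The levels of Prl, Gh, Pomc and Cga went together over the libraries. On the log2(CPM + 0.5) scale over the 10 libraries, Prl and Gh had a Pearson r of 0.93 and a Spearman rho of 0.94, and r was 0.89 without the 2 libraries farthest from the median of Prl. Gh and Pomc had an r of 0.80 and a rho of 0.84 (r of 0.69 without the 2 farthest), and Gh and Cga 0.78 and 0.89 (0.73). Prl and Pomc had 0.73 and 0.76 (0.65), and Prl and Cga 0.63 and 0.82 (0.68). For the β subunit genes the values were lower: Gh and Fshb had 0.60 and 0.63 (0.39 without the 2 farthest), and Prl and Fshb 0.41 and 0.46 (0.58). Lhb had 0.47 and 0.31 with Prl (0.79) and 0.47 and 0.36 with Gh (0.23). The lowest were those of Tshb, with 0.19 and 0.16 for Prl (0.31) and 0.10 and 0.13 for Gh (0.19). These are descriptions of 10 libraries that include all 4 groups, with no p-value, and each pair of values shares a library and its depth.

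**Figure D2:**
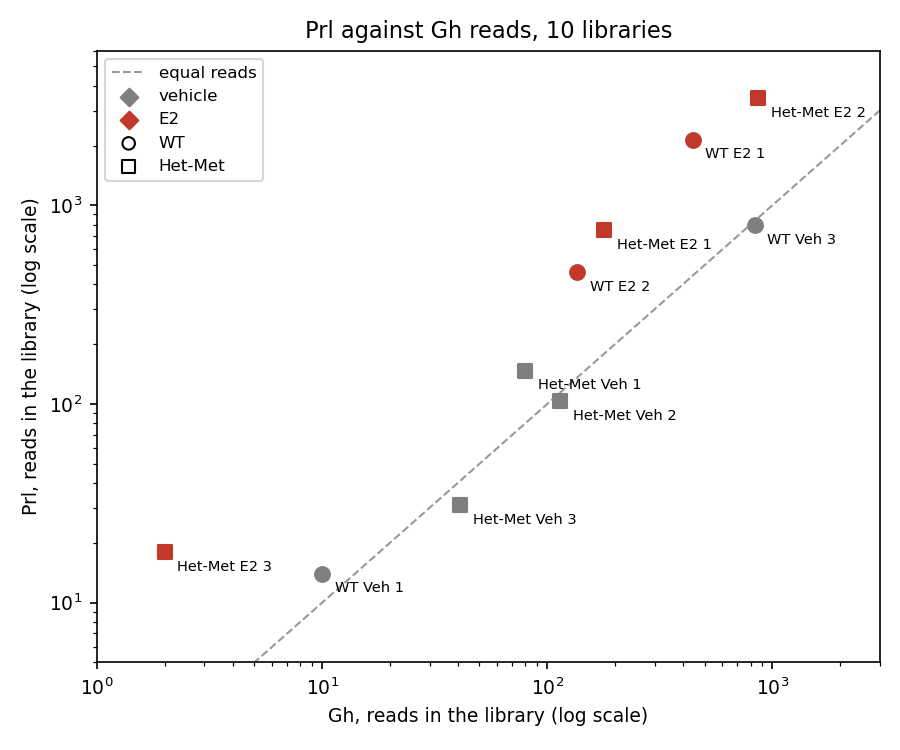
Prl reads against Gh reads in each of the 10 libraries, both on log scales (gray, vehicle; red, E2; circles, WT; squares, Het-Met; dashed line, equal reads). Vehicle libraries lie closer to the line of equal reads than the 5 E2 libraries, which all lie above it. Vehicle-treated WT replicate 1 (14 Prl to 10 Gh reads) and Het-Met replicate 1 (147 to 80) also lie above it.

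The balance between the hormones within a library does not depend on how reads were scaled, since both genes come from 1 library. Vehicle-treated WT libraries had 14 Prl to 10 Gh reads (a ratio of 1.40, exact 95% interval 0.578 to 3.52) and 797 to 836 (0.953, 0.864 to 1.05). E2-treated WT libraries had 2139 to 444 (4.82, 4.35 to 5.35) and 461 to 136 (3.39, 2.79 to 4.14). In WT mice Prl reads thus stood near Gh reads under vehicle and several times above them under E2. Per kb of exon the Prl to Gh ratios of these libraries were 0.857 and 0.584 under vehicle and 2.95 and 2.08 under E2.

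In vehicle-treated Het-Met libraries the numbers were 147 to 80 (1.84, 1.39 to 2.44), 103 to 114 (0.904, 0.685 to 1.19) and 31 to 41 (0.756, 0.458 to 1.24). In E2-treated Het-Met libraries they were 748 to 179 (4.18, 3.55 to 4.95) and 3468 to 867 (4.0, 3.71 to 4.31). The third E2-treated Het-Met library had 18 Prl and 2 Gh reads, too few for a ratio under the rule of more than 3 reads of each gene, and Prl was 90.0% of both (exact 95% interval 68.3 to 98.8%). The intervals, which cover counting error only, come from exact (Clopper-Pearson) intervals of the share.

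No vehicle ratio reached an E2 ratio: the vehicle ratios ran from 0.756 to 1.84 (n = 5) and the E2 ratios from 3.39 to 4.82 (n = 4). The mean log2 ratio was 0.15 ± 0.52 (SD, n = 5) under vehicle and 2.02 ± 0.21 (SD, n = 4) under E2, a difference of 1.87, or 3.67-fold. Leaving out each library in turn gave differences between 1.74 and 2.06, and all 10 libraries with 0.5 added to each read number gave 2.05. The interval of vehicle-treated WT replicate 1 reached into those of E2 libraries, because it rests on 24 reads. No test was made, since the ratio was taken from genes chosen with their levels known. The median of all genes tested differed by 0.00 on the log2 scale between E2 and vehicle, which is a value of single genes and not of ratios. How often other pairs of genes part the treatments in this way was not worked out, so how unusual this separation is remains unknown.

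The other ratios gave a less even picture. Pomc reads per Gh read ran from 0.193 to 3.50 under vehicle (n = 5) and from 0.0923 to 0.559 under E2 (n = 4), which overlap. Cga reads per Gh read, in the libraries with more than 3 reads of each, ran from 0.0439 to 0.0825 under vehicle (n = 3) and from 0.0115 to 0.0698 under E2 (n = 3), which also overlap. The library with the most hormone reads, E2-treated Het-Met replicate 2, had 10 Cga to 867 Gh reads (0.0115, 0.00551 to 0.0213), against 69 to 836 in vehicle-treated WT replicate 3 (0.0825, 0.0636 to 0.106) and 31 to 444 in E2-treated WT replicate 1 (0.0698, 0.0469 to 0.101). Fshb followed Cga in these 3 libraries, with 0, 21 and 9 reads. Pomc reads per Prl read ran from 0.197 to 2.50 under vehicle and from 0.0192 to 1.00 under E2 (n = 5 each), which overlap. Cga reads per Prl read were 0.0272 to 0.0866 under vehicle and 0.00288 to 0.0145 under E2 (n = 3 each) and did not overlap, but this ratio holds the same Prl reads as the ratio of Prl to Gh.

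**Figure D3:**
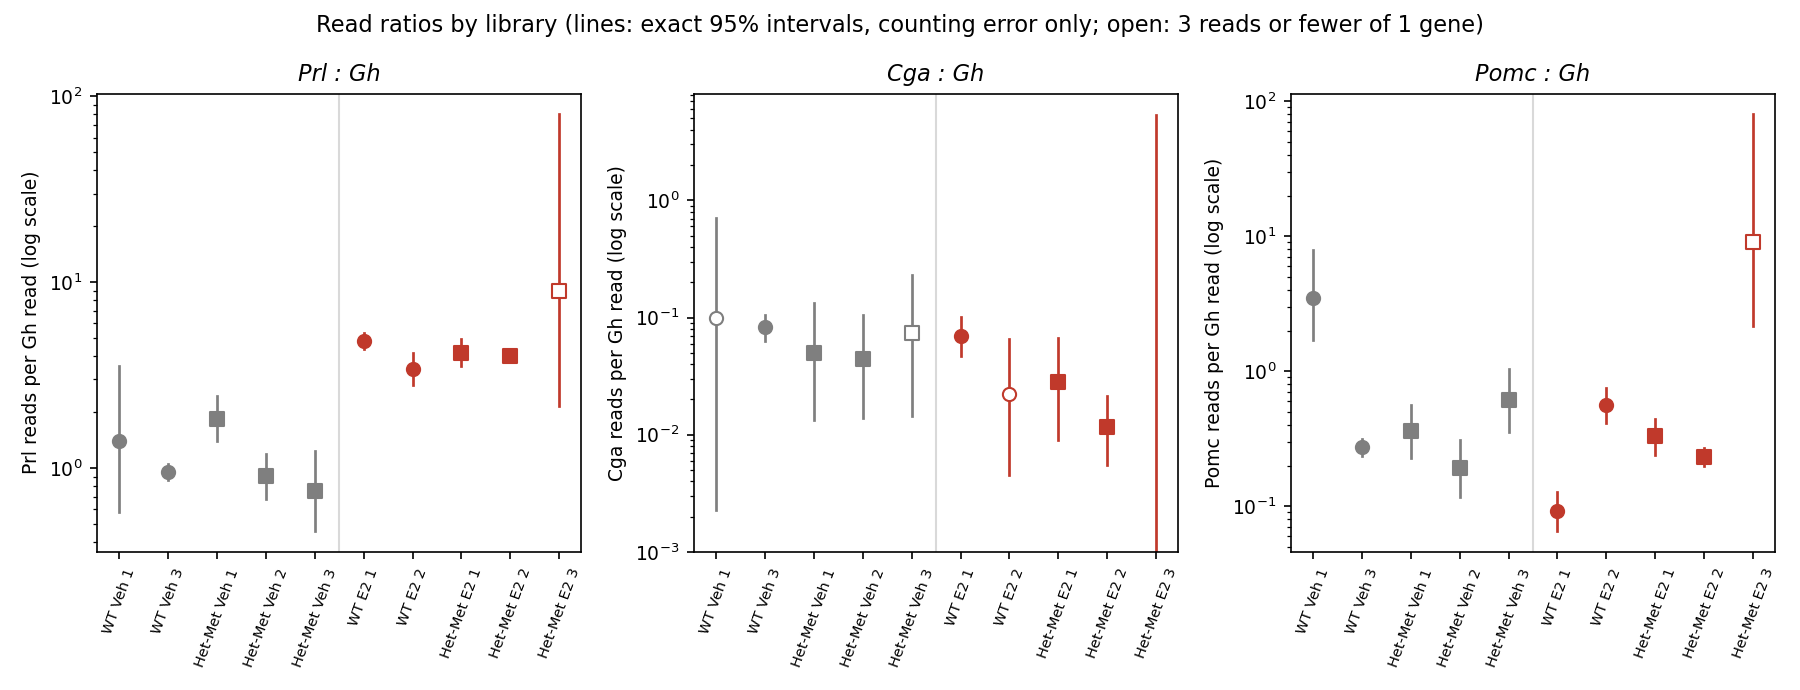
Reads of Prl, Cga and Pomc per read of Gh in each library on log scales (gray, vehicle; red, E2; circles, WT; squares, Het-Met; lines, exact 95% intervals for counting error; open symbols, 3 reads or fewer of 1 of the genes; a line without a symbol has 0 Cga reads). The Prl to Gh ratio lies between 0.756 and 1.84 under vehicle and at 3.39 or above under E2, whereas the other 2 ratios overlap between treatments.

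The levels themselves did not follow E2 in the same way. Prl differed between E2 and vehicle by 2.71 on the log2(CPM + 0.5) scale in WT mice (limma standard error 1.70, n = 2 against 2) and by 2.20 in Het-Met mice (1.38, n = 3 against 3). Without vehicle-treated WT replicate 1 the WT difference was 0.15 and without vehicle-treated WT replicate 3 it was 5.27. Without E2-treated Het-Met replicate 2 the Het-Met difference was 0.70 and without E2-treated Het-Met replicate 3 it was 4.15, so single libraries set the size of the Prl difference in both genotypes.

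Gh differed by 0.84 (1.57) in WT and 0.60 (1.28) in Het-Met mice. Its sign turned without 1 library in each genotype, to -1.88 without vehicle-treated WT replicate 1 and to -0.77 without E2-treated Het-Met replicate 2. Pomc differed by -0.76 (0.72) in WT and 1.05 (0.59) in Het-Met mice, and Cga by -0.42 (0.66) and 0.04 (0.54). For both the WT sign turned without vehicle-treated WT replicate 3, to 0.49 for Pomc and 1.00 for Cga. The Het-Met difference of Pomc was 0.32 without E2-treated Het-Met replicate 2 and 1.75 without E2-treated Het-Met replicate 3. The standard errors of Prl and Gh were larger than 1 log2 unit in both genotypes, larger than the Gh differences themselves.

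Over the 10 genes the differences between E2 and vehicle were above 0 for 5 and below 0 for 5 in WT mice, with a median of 0.02 (range -0.76 to 2.71). They were again split 5 and 5 in Het-Met mice, with a median of 0.02 (range -0.12 to 2.20). In WT mice Tshb (0.463 and 0.248 CPM under vehicle, 0.583 and 0.516 CPM under E2) and Pitx1 (1 and 3 reads under vehicle, 0 and 0 under E2) did not overlap between treatments, both from 13 reads or fewer in each library. These are 2 of the 10 genes, where 24.4% of the 24421 genes of the table did not overlap in this comparison of 2 against 2 libraries. In Het-Met mice 0 of the 10 genes were without overlap, beside 7.46% of all genes.

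Between genotypes, over both treatments, 8 of the 10 genes were lower in Het-Met than in WT mice, with a median of -0.39 (range -0.89 to 0.06), beside 0.02 for all genes tested. The median was -0.02 without vehicle-treated WT replicate 3 and -0.12 without E2-treated Het-Met replicate 3. The difference was -0.89 (standard error 1.09) for Prl, -0.79 (1.01) for Gh, -0.65 (0.47) for Pomc and -0.85 (0.43) for Cga. Without vehicle-treated WT replicate 3 the differences became 0.39 for Prl, 0.57 for Gh, -0.03 for Pomc and -0.14 for Cga. The E2 difference in Het-Met minus that in WT mice was -0.50 (2.19) for Prl, -0.24 (2.02) for Gh, 1.81 (0.94) for Pomc and 0.46 (0.86) for Cga. Leaving out vehicle-treated WT replicate 3 or replicate 1 took it to -3.07 or 2.06 for Prl, -2.97 or 2.48 for Gh, 0.56 or 3.05 for Pomc and -0.96 or 1.88 for Cga, so that its sign rested on 1 library for Prl, Gh and Cga.

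Markers of neighboring tissues were set beside Prl in each library. The choroid plexus markers summed to 148 and 1075 CPM in vehicle-treated WT, 2486 and 1893 in E2-treated WT, 3257, 1461 and 1926 in vehicle-treated Het-Met and 1543, 431 and 257 CPM in E2-treated Het-Met libraries. The lowest sums were in the same 2 libraries that were lowest for Prl, vehicle-treated WT replicate 1 and E2-treated Het-Met replicate 3. The library with the most Prl had the third lowest sum. The Pearson r between Prl and this sum on the log2 scale was 0.37 (rho 0.28, and 0.47 without the 2 farthest libraries), against -0.04 for meningeal markers, -0.04 for hypothalamic region markers and -0.27 for hippocampal markers. The part of neighboring tissue in the level of the pituitary genes was not tested.

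**Figure D4:**
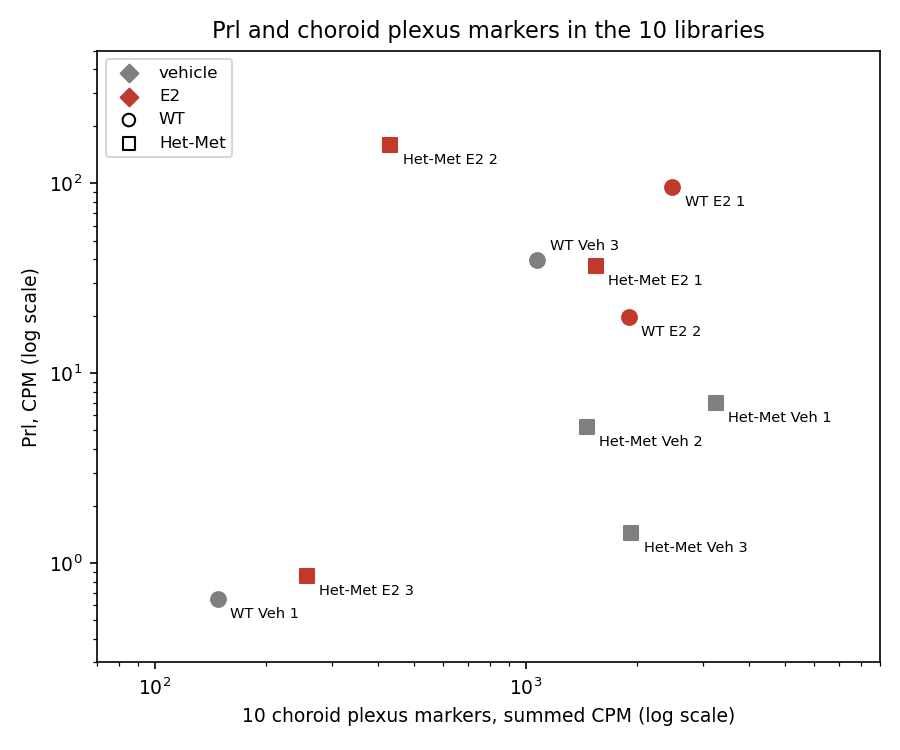
Prl against the summed level of 10 choroid plexus markers in each library, both in CPM on log scales (gray, vehicle; red, E2; circles, WT; squares, Het-Met). The 2 libraries lowest for Prl are also lowest for the markers, and the library with the most Prl, at 159.9 CPM, has a marker sum of 431 CPM.

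Other genes of the pituitary axes were taken from 5 lists that hold none of the 10 genes: 18 lineage factors, 8 receptors for releasing factors, 10 genes of hormone processing and secretory granules, 16 hormone receptors and their signaling genes, and 16 hypothalamic peptides. Of these 68 genes 43 passed the filter on the mean level and entered the limma fit of all 15081 genes. With a fold change above 1.3 and an adjusted p under 0.05, 0 of the 43 were called for E2 in WT mice, where 0.0133% of all genes were called. In Het-Met mice 0 were called (0% of all genes), for the interaction 0 (0.0729%), for E2 over both genotypes 0 (0.00663%) and for genotype 0 (0.0265%). edgeR on the recovered reads also called 0 of them in all 5 comparisons. DESeq2 called 0 except Pcsk1 for genotype, where it called 88 of all genes.

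At an unadjusted p under 0.05 with the same fold change limit, 4 of the 43 passed for E2 in WT mice (3 higher, 1 lower, 2.58% of all genes) and 2 in Het-Met mice (1 higher, 1 lower, 1.95%). For the interaction 4 passed (1 higher, 3 lower, 3.96%), for E2 over both genotypes 3, all higher (0.782%), and for genotype 1, Stat5a, which was lower in Het-Met mice (1.94%). The median log2 difference of the 43 genes was 0.05 for E2 in WT and 0.04 in Het-Met mice, beside 0.00 for all genes tested in both.

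Among the lineage factors Hesx1, which acts early in pituitary development, was listed at 0 in all 10 libraries. Six6 and Tbx19, the latter a corticotroph factor, reached at most 2 reads in a library, as did Gnrhr, the gonadotroph receptor for gonadotropin-releasing hormone. The factors with the highest levels were Sox2, Neurod1, Otx2 and Gata2, which the brain also uses. Sox2 ran from 39.2 to 48.1 CPM and Neurod1 from 30.6 to 38.6 CPM, and Gata2 from 2.32 to 5.30 CPM.

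Otx2, a homeobox gene that the choroid plexus also expresses, was 1.57 and 4.36 CPM in vehicle-treated WT and 12.4 and 9.03 CPM in E2-treated WT libraries. In vehicle-treated Het-Met libraries it was 9.44, 5.45 and 6.45 CPM, and in E2-treated Het-Met libraries 6.41, 3.18 and 3.41 CPM. It was higher in both E2-treated WT libraries than in both vehicle-treated ones, by 1.81 on the log2 scale (standard error 0.36, adjusted p = 0.127 from limma), and differed by -0.68 in Het-Met mice (0.29, adjusted p = 0.872 from limma). The interaction was -2.49 (0.47, adjusted p = 0.0673 from limma). Six3, a forebrain and pituitary homeobox gene, differed by 1.25 in WT mice (0.40, adjusted p = 0.819 from limma) and by -0.15 in Het-Met mice (0.33, adjusted p = 0.988), with an interaction of -1.40 (0.52, adjusted p = 0.697). Sox3 differed by 0.48 in WT mice (0.24, adjusted p = 1 from limma) and by 0.45 in Het-Met mice (0.19, adjusted p = 0.872).

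Prlr, the prolactin receptor gene, is a known choroid plexus transcript. It was 5.74 and 20.1 CPM in vehicle-treated WT and 62.3 and 34.8 CPM in E2-treated WT libraries. In vehicle-treated Het-Met libraries it was 23.9, 17.6 and 23.7 CPM, and in E2-treated Het-Met libraries 26.6, 11.5 and 9.30 CPM. The E2 difference was 2.06 in WT mice, with a standard error of 0.47 (adjusted p = 0.263 from limma). In Het-Met mice it was -0.58 (0.38, adjusted p = 0.952 from limma). The interaction was -2.64 (0.61, adjusted p = 0.135 from limma). The library with the most Prl, E2-treated Het-Met replicate 2, was thus among the 3 lowest for its receptor. The 2 libraries lowest for Prl, vehicle-treated WT replicate 1 and E2-treated Het-Met replicate 3, were lower still for Prlr. E2-treated WT replicate 1, the highest for Prlr, was second highest for Prl. Beside these values, 0 of the 10 choroid plexus markers were called at the adjusted threshold for E2 in either genotype. At the unadjusted limit 10 of 10 passed in WT mice, where 2.58% of all genes did, all higher under E2, with a median log2 difference of 2.07. In Het-Met mice all 10 differences were below 0, with a median of -1.30, and 9 passed the unadjusted limit (1.95% of all genes). Their part in the Otx2 and Prlr values was not tested. Stat5b, which carries the prolactin and growth hormone signal into the nucleus, differed by 0.11 (0.11) in WT and 0.22 (0.09) in Het-Met mice, and neither was called. Igf1r ran from 67.1 to 84.7 CPM, and Dio2, which activates thyroid hormone, from 49.3 to 77.4 CPM.

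Of the receptors for releasing factors, Trhr (13.5 to 20.8 CPM), Crhr1 (12.2 to 20.0 CPM), Sstr2 (8.97 to 13.2 CPM) and Drd2 (1.98 to 3.05 CPM) were the highest, and neurons express all 4. Crhr1, the receptor for corticotropin-releasing hormone, differed by -0.39 for E2 in WT mice, with a standard error of 0.15 (adjusted p = 1 from limma). The 10 processing and granule genes passed the filter without exception and 0 were called in any of the 5 comparisons with limma. The highest was Cpe, carboxypeptidase E, at 2469 to 3034 CPM, followed by Chgb (709 to 861 CPM), Pcsk1n (405 to 506 CPM) and Scg3 (319 to 388 CPM), all of which neurons also use. Of the hypothalamic peptides Sst (246 to 319 CPM), Npy (49.7 to 63.3 CPM), Vip (18.1 to 25.0 CPM) and Tac2 (2.97 to 7.10 CPM) were the highest, and interneurons of the hippocampus make the first 3. Ghrh, which drives somatotrophs, had at most 5 reads in a library.

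The genes most like Prl, Gh and Pomc over the 10 libraries spanned narrow ranges. Leaving out the 10 genes themselves, the 5 genes with the highest Pearson r to Prl on the log2(CPM + 0.5) scale were Cysltr1 (0.93), Chpt1 (0.91), Chsy1 (0.90), Bmpr1a (0.88) and Cpm (0.88). For Gh they were Chpt1 (0.97), Rab22a (0.92), Paqr8 (0.92), Spopl (0.90) and Dio2 (0.90), and for Pomc Zfp280d (0.91), Spopl (0.91), Ppm1k (0.91), Cep85l (0.90) and Prickle1 (0.90). Chpt1, near the top for both Prl and Gh, ran from 25.8 to 34.4 CPM, a narrow range beside that of Prl. Among the 15081 genes 37 reached an r of at least 0.8 with Prl, 57 with Gh and 43 with Pomc. With 10 libraries and this many genes, some reach such an r by chance. How many was not worked out, so the genes named are not shown to be linked to the hormone genes. These likenesses are descriptions over 10 libraries, with no test.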

How the data were processed

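RNA of the vHpc was sequenced with a stranded kit and 75-bp reads. The authors deposited CPM per gene symbol, scaled so that each library sums to 1000000. The submitters' processing notes name TopHat2, DESeq, DESeq2 and mm10. Dividing by a library's lowest nonzero value gave whole reads for 100.0% of its values (tolerance 0.01). Gene positions and exon lengths came from GENCODE vM21, and promoter windows from RefSeq (GRCm38.p6).

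The 10 genes and the lists were chosen with earlier results of these data known. limma 3.58.1 (R 4.3.3) fitted the 4 group means over all 10 libraries to log2(CPM + 0.5) for the 15081 genes whose mean reached 0.5 CPM, with an intensity trend, two-sided tests, and Benjamini-Hochberg adjustment over all of them. Prior degrees of freedom were 8.90 and residual ones 6. Calls needed an adjusted p under 0.05 and a fold change above 1.3. This scale understates the change of low genes. Where a difference is given for a gene under the filter, it is a difference of group means on the same scale. Nothing states that the pools of a group came from separate cages or days, so p-values measure the spread between these libraries.

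Genes named are the 10, the 4 highest of each list, any called gene, those with an unadjusted p under 0.05 for E2 in either genotype or for the interaction, the 2 highest markers and markers at 0, and the 5 genes most like Prl, Gh and Pomc. Stat5a, Pcsk1, Ghrh, Six6, Tbx19, Gnrhr, Hemgn, Alas2, Sim1, Otp, Nr5a1 and Hesx1 were named after their values were seen. Some list genes are not reported here by name. Alternatives were a pseudocount of 0.1 or 1, a filter at 2 CPM or none, median-of-ratios scaling, a fit on the compared libraries alone, a replicate block, leaving out each library, and edgeR 4.0.16 (quasi-likelihood) and DESeq2 1.42.0 on recovered reads. The alternatives for the Prl to Gh ratio were chosen after seeing the data. The limma step was tested on simulated data. Ratios and figures used python 3.11.15, scipy 1.17.1 and matplotlib 3.10.9.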

Additional observations from a re-analysis of the deposited data

Results flagged for a closer look

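Crhr1, the receptor gene for corticotropin-releasing hormone, was singled out because E2 went with opposite moves in the 2 genotypes and the libraries of the treatments did not overlap in either. Of the 15081 genes tested 307 (2.04%) met this description. It was 20.0 and 13.4 CPM in vehicle-treated WT, 12.7 and 12.2 CPM in E2-treated WT, 14.3, 14.6 and 14.6 CPM in vehicle-treated Het-Met and 17.3, 15.5 and 17.8 CPM in E2-treated Het-Met libraries. In WT mice the size of the difference rests on the vehicle library at 20.0 CPM. The interaction was 0.59 on the log2(CPM + 0.5) scale (standard error 0.20), with an adjusted p of 0.557 from limma over 15081 genes, which missed the threshold.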

How the results depend on the processing

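At the adjusted threshold 0 of the 43 tested list genes were called in each of the 5 comparisons. At an unadjusted p under 0.05 the counts were 4 for E2 in WT, 2 for E2 in Het-Met, 4 for the interaction, 3 for E2 over both genotypes and 1 for genotype. Leaving out 1 Het-Met library at a time gave 0 to 2 for the interaction and 0 to 1 for genotype. The 2, Otx2 and Prlr, came without E2-treated Het-Met replicate 1, where 71 of all genes were called, beside 11 in the main fit. The 1, Pcsk1, came without vehicle-treated Het-Met replicate 2, where 86 of all genes were called, beside 4 in the main fit. Leaving out a WT library left 1 library in its group, so no counts are given for it. DESeq2 gave 1 for genotype, again Pcsk1, where it called 88 of all genes. The cause of these changes was not tested. The replicate block gave 1 for the interaction (Otx2), where 18 of all genes were called, and changed no other count of list genes. Deviations of same-numbered libraries had an r of -0.17 to 0.08, so the numbers do not pair the samples.

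The median interaction of the 10 genes was 0.02, and from -0.29 to 0.70 with each library left out (0.70 without vehicle-treated WT replicate 1). The other 69 alternative medians of the 10 genes moved by less than 0.40, the spread between replicates, which is as large as the genotype median itself (-0.39, and -0.66 to -0.02 with each library left out). Of the differences of single genes 666 moved by less than this kind of spread and 34 by more. The 10 alternatives gave Prl to Gh differences of 1.74 to 2.06. As no vehicle ratio reached an E2 ratio, leaving out 1 library could not have brought this difference to 0. Depth limits Pou1f1, Ghrhr, Pitx1 and Fshb, which had 0 reads in 4 to 6 libraries, and the ratio in E2-treated Het-Met replicate 3, which rests on 2 Gh reads.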
